A study of Mus musculus with 30 samples.

Results

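The comparison described here is PD-1 blockade in tumours that lack functional Jak1. It uses the 10 libraries titled Jak1KO, 5 from mice treated with a PD-1 antibody (aPD1) and 5 from mice treated with an IgG1 control, out of 30 libraries in the series. MC38 is a mouse colon carcinoma line, and the tumours grew under the skin of female C57BL/6 mice aged 6 to 8 weeks from cells carrying a loss-of-function mutation in Jak1. The other 20 libraries come from wild-type MC38 tumours (WT) and from tumours with a loss-of-function mutation in B2m (B2mKO), with the same antibodies and 5 libraries in each of their 4 groups. Every mouse received 100 µg of aPD1 or IgG1 into a vein on days 7, 10 and 13 after the cells were injected, and tumours were taken on day 14. About 50 mg of frozen tumour was used for RNA. The labels do not say whether the Jak1KO cells are 1 clone, nor that the 5 libraries of a group are 5 different mice, so a p-value here reflects the spread among libraries, which may be partly technical. The mutation is in the injected cells, and the labels name no mutation in the host mice.

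PD-1 is an inhibitory receptor on activated T cells, and its ligand PD-L1, encoded by Cd274, is made by tumour and myeloid cells. When blockade works, T cells release interferon gamma, which signals through JAK1 and JAK2 and turns on guanylate-binding proteins, immunity-related GTPases, antigen presentation genes and PD-L1 itself. JAK1 also serves the type I interferon receptor, so a tumour cell without JAK1 does not respond to either kind of interferon, while the T cells, macrophages and other host cells around it still can. The question of the comparison is what PD-1 blockade does to the RNA of such tumours.

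No gene passed the test between aPD1 and IgG1 in Jak1KO tumours. The counts were summed over whole genes, and levels are in CPM, the counts of a gene scaled to a common library total, with no correction for length, so levels of different genes are not compared. With 15505 genes tested, edgeR's quasi-likelihood test called 0 genes (0%) at a Benjamini-Hochberg adjusted p under 0.05, and the smallest adjusted p was 1. At an unadjusted p under 0.05 there were 174 genes, 91 higher with aPD1 (0.587% of genes tested) and 83 lower (0.535%). If no gene changed, a fraction of 0.05 of the genes would be under that threshold on average. The observed shares are far below this, and the count of 0 is not a measure of small effects. That fraction is an average over repeated experiments, so the shares of 1 comparison do not show whether the test was conservative. The reason was not tested. DESeq2 and limma voom also called 0 genes, with 153 and 114 at an unadjusted p under 0.05. A p that misses the threshold does not show that the groups are equal, so each gene is given below with a 95% interval for its log2 fold change.

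Jak1 itself (chr4:101152367-101265282 in GRCm38) was measured first as a check of the labels. It stood at 72.7, 68.7, 74.3, 77.2 and 64.4 CPM in IgG1 libraries 1 to 5 and at 81.9, 72.6, 66.5, 64.9 and 76.3 CPM in aPD1 libraries 1 to 5. All 10 lay below the 20 libraries with intact Jak1, which ranged from 182 to 323 CPM. The 2 Jak1KO groups overlapped, with 71.5 ± 4.98 CPM and 72.4 ± 6.99 CPM (SD, n = 5 each), and the log2 fold change with aPD1 was 0.020 ± 0.10 (SE; 95% interval -0.18 to 0.22). Jak1 RNA of host cells and RNA of the mutated gene cannot be told apart in bulk tissue. Total counts per library were 17629795 to 23482943 with IgG1 and 19987329 to 23090261 with aPD1, and mitochondrial genes held 1.38% to 2.24% of counts. Of the simple epithelium genes that a carcinoma of the colon could express, Krt8, Krt18 and Epcam were near 0 in most libraries, with Epcam at 0 to 0.174 CPM with aPD1 and 0.0941 to 0.836 CPM with IgG1; 9 of the 16 genes of that list passed the filter on low counts.

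Across the 15505 genes the estimated effects of aPD1 were small. The median log2 fold change was -0.0015, and 49.2% of genes had an estimate above 0. The median absolute log2 fold change was 0.063, where the same fit gave 0.176 in WT tumours and 0.143 in B2mKO tumours. This measure grows with the spread among libraries. The median SD of log2 CPM with aPD1 and IgG1 was 0.146 and 0.153 in Jak1KO, 0.198 and 0.351 in WT, and 0.338 and 0.188 in B2mKO tumours. The medians therefore do not by themselves compare the antibody effect between genotypes. In Jak1KO tumours 205 genes had an estimate beyond 2-fold, 158 higher and 47 lower, and 143 of these were under 1 CPM on average. The half-width of the 95% interval had a median of 0.349 on the log2 scale. The end of the interval farther from 0, which bounds the size of the effect, was a 1.34-fold change at the median gene, 2.2-fold at the 90th percentile and 2.75-fold at the 95th percentile.

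The interval lay wholly inside a 1.5-fold change in either direction for 10299 genes (66.4%), inside 2-fold for 13327 (86.0%) and inside 4-fold for 15126 (97.6%). An equivalence test, which asks whether both a 2-fold rise and a 2-fold fall can be rejected at an adjusted p under 0.05, bounded 13866 genes within 2-fold (89.4%). The share depends on the filter on low counts, and with every gene of at least 1 count kept it was 38.1% (13306 of 34952 genes). That test is more lenient than a 95% interval, so the 13866 bounded genes include some whose interval passes 2-fold, against 13327 with the interval inside. The gap was largest under 1 CPM, with 1393 genes bounded by the test and 1044 by the interval. Below, bounded means bounded by the test unless the interval is named. The interval excluded 0 for 141 genes, excluded every change smaller than 1.5-fold for 2 genes, and was not finite for 7 genes that were absent from a whole group.

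The bounds were tighter for genes at higher levels. Of the 2370 genes at 100 CPM or more, 99.5% were bounded within 2-fold, with a median bound of 1.24-fold. Among the 7124 genes from 10 to 100 CPM the share was 99.2%, and among the 3402 genes from 1 to 10 CPM it was 89.6%. Under 1 CPM there were 2609 genes, of which 53.4% were bounded, and the median bound there was 2.13-fold. The tightest intervals among genes of at least 5 CPM belonged to Ube2q1, a ubiquitin-conjugating enzyme, at -0.019 (-0.12 to 0.079), Azi2, an adaptor of innate immune signalling, at 0.017 (-0.083 to 0.12), and Pigu, a subunit of the enzyme that attaches GPI anchors, at 0.038 (-0.063 to 0.14).

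**Figure D1:**
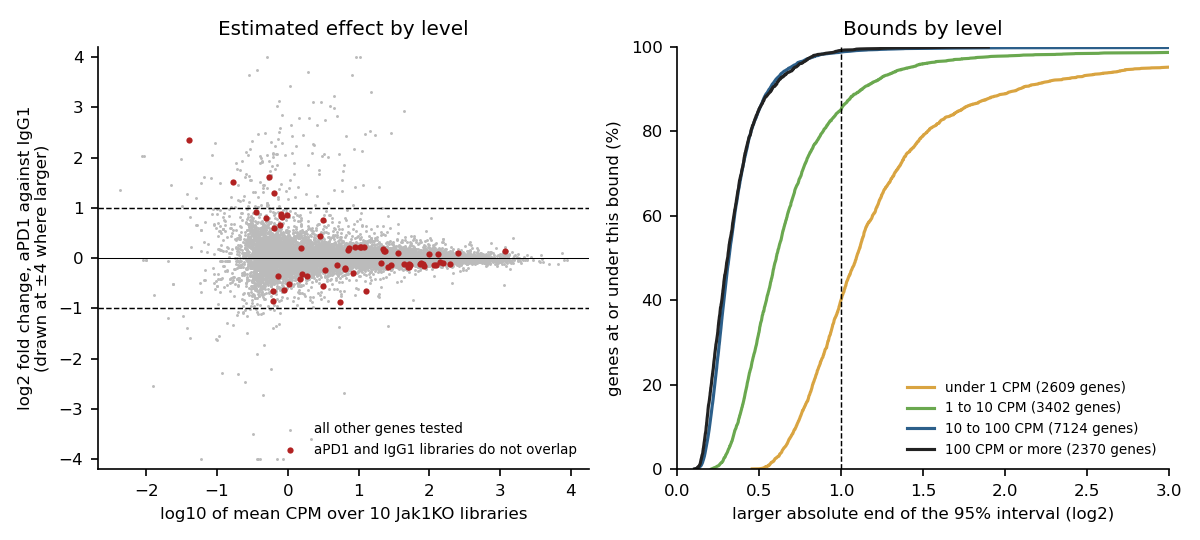
Left, the estimated log2 fold change of aPD1 against IgG1 in Jak1KO tumours for each gene tested against the log10 of its mean CPM over the 10 libraries, with dashed lines at 2-fold and, in red, genes whose 2 groups of 5 libraries do not overlap. Right, the share of genes whose larger 95% interval end is at or under a given log2 size, by expression level; at the dashed 2-fold line the curves for genes from 10 CPM upward are near 99%, and the curve for genes under 1 CPM is at 40.0%.

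The intervals above use a spread shared by all 6 groups of the series, and the Jak1KO groups had the lowest median spread of the 6. The median standard deviation of log2 CPM within a group was 0.146 with aPD1 and 0.153 with IgG1 in Jak1KO tumours, against 0.188 to 0.351 in the other 4 groups. For the most variable genes this held only with IgG1, where 218 genes had an SD over 1 in Jak1KO tumours, the fewest of the 6 groups. With aPD1 the Jak1KO count was 348, above 313 in WT aPD1 and 322 in B2mKO IgG1 tumours. It was below 711 in WT IgG1 and 682 in B2mKO aPD1 tumours. When only the 10 Jak1KO libraries were fitted, the median half-width was 0.194, and 13735 of 14388 genes tested (95.5%) were bounded within 2-fold. That fit also called 0 genes, with 367 at an unadjusted p under 0.05. At the median, the intervals given here were therefore wider than those of the fit to the Jak1KO libraries alone, which tested fewer genes. This was not shown for every gene. Of the 13866 genes bounded in the main fit, 13513 were bounded in that fit too, and the rest were not bounded or not tested there.

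Some genes separated the groups without passing the test. All 5 aPD1 libraries lay above all 5 IgG1 libraries for 29 genes (0.187%), and below them for 34 (0.219%). Among 15505 genes some separate 5 from 5 libraries by chance alone, so these counts do not show an effect of aPD1. The genes below are given as description. Of those with at least 5 CPM and an unadjusted p under 0.05, 1 was higher and 5 were lower. The largest estimate of these 6 was that of Ptgs1 (chr2:36230426-36252272), which encodes cyclooxygenase 1, an enzyme of prostaglandin synthesis. It measured 7.39, 7.74, 7.20, 6.83 and 6.40 CPM in IgG1 libraries 1 to 5 and 3.25, 5.99, 3.2, 2.47 and 4.56 CPM in aPD1 libraries 1 to 5. The lowest IgG1 library stood just above the highest aPD1 library, and the log2 fold change was -0.87 ± 0.37 (95% interval -1.62 to -0.12).

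Fabp4 (chr3:10204088-10208576), a fatty acid carrier of adipocytes, capillary endothelium and macrophages, measured 17.4, 17.6, 12.1, 16.5 and 15.3 CPM with IgG1 and 10.5, 11.2, 9.82, 7.65 and 10.5 CPM with aPD1. Its log2 fold change was -0.66 ± 0.27 (-1.22 to -0.11), and the fit put it at -0.76 in WT tumours too, where it did not pass either (adjusted p = 0.103). The other 3 genes that were lower in every aPD1 library had smaller estimates, with Zfp414, a zinc finger protein, at -0.30 ± 0.13, Endov, an endonuclease for inosine in RNA, at -0.15 ± 0.069, and Ldb1, a cofactor of LIM-domain transcription factors, at -0.14 ± 0.059. Setdb2, which encodes a histone methyltransferase family member, was higher in every aPD1 library. Its aPD1 values were nearly equal, at 11.3 to 11.7 CPM, and the highest IgG1 library, at 11.3 CPM, almost reached them (log2 fold change 0.21 ± 0.10). All 6 intervals include changes smaller than 1.5-fold.

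**Figure D2:**
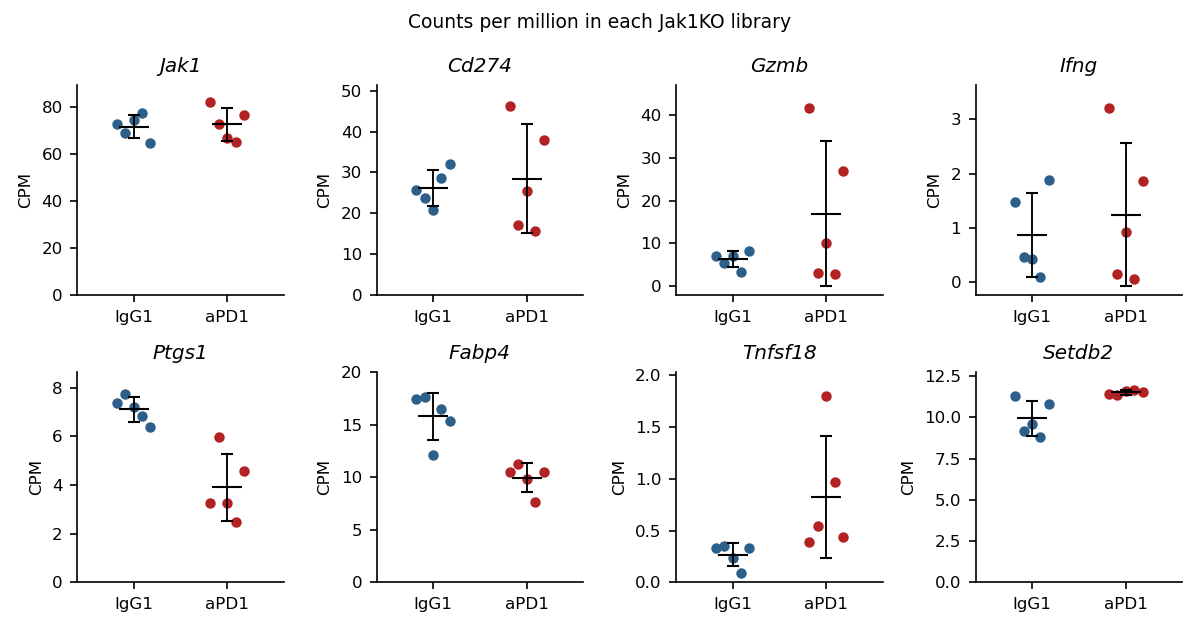
CPM of 8 genes in the 5 IgG1 libraries (blue) and the 5 aPD1 libraries (red) of Jak1KO tumours, 1 point per library in replicate order, with the mean and SD in black. Ptgs1, Fabp4, Tnfsf18 and Setdb2 separate the groups, while in Jak1, Cd274, Gzmb and Ifng the groups overlap and the aPD1 points are spread more widely.

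Most of the 174 genes with an unadjusted p under 0.05 were at low levels, with 90 under 1 CPM, 65 from 1 to 10 CPM, 17 from 10 to 100 CPM and 2 above. Arhgap8, a GTPase-activating protein, had the smallest of all and was chosen for that reason after its values were seen. It measured 0.219, 0.050, 0.0941, 0.185 and 0.125 CPM with IgG1 and 0.471, 0.495, 0.438, 0.533 and 0.217 CPM with aPD1, and its log2 fold change was 1.64 ± 0.51. Tnfsf18 (chr1:161494655-161505290), the ligand of the costimulatory receptor GITR, was the only member of the checkpoint and costimulation list to separate the groups upward. It ran from 0.0923 to 0.350 CPM with IgG1 and from 0.385 to 1.80 CPM with aPD1, with aPD1 library 3 the highest, at a log2 fold change of 1.61 ± 0.50 (0.58 to 2.65). In WT tumours its estimate was -1.21, and the difference between the genotypes was 2.82 ± 0.75 (adjusted p = 0.195). Its receptor gene Tnfrsf18 had an estimate of -0.072 (-0.63 to 0.49) in Jak1KO tumours.

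The targets of interferon gamma showed no called change. All 30 members of the list were tested, 0 passed, 1 was higher at an unadjusted p under 0.05, and 23 were bounded within 2-fold (76.7%, against 89.4% of all genes). The median log2 fold change was 0.14, with 24 estimates above 0 (49.2% over all genes).

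Igtp, an immunity-related GTPase, measured 36.7, 22.1, 31.7, 20.6 and 43.0 CPM under IgG1 and 64.9, 21.2, 41.3, 22.8 and 46.9 CPM under aPD1. Libraries 1 and 5 of the aPD1 group were above every IgG1 library and libraries 2 and 4 were near the lowest values, so the groups overlapped (log2 fold change 0.35 ± 0.29). For Irgm1, a regulator of those GTPases, and Gbp7, a guanylate-binding protein, the estimates were 0.016 ± 0.16 and -0.093 ± 0.19, and the transcription factor Irf1 was at -0.065 (-0.35 to 0.22). Tap1, a subunit of the peptide transporter, was bounded from -0.31 to 0.33. The member with an unadjusted p under 0.05 was Nos2, the inducible nitric oxide synthase of macrophages. Its IgG1 libraries measured 9.57, 23.6, 10.4, 14.3 and 14.3 CPM and its aPD1 libraries 56.6, 17.3, 13.0, 13.9 and 42.6 CPM, so aPD1 libraries 1 and 5 carried the difference of 0.99 ± 0.44 and the other 3 lay among the controls. Without aPD1 library 1 it was 0.59. Ido1, which breaks down tryptophan, had at most 0.257 CPM in any library of either group, and its interval, -1.64 to 1.96, reaches past 2-fold in both directions.

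Of the receptor and its ligands, Cd274 (PD-L1) measured 25.8, 23.8, 20.8, 28.7 and 32.0 CPM with IgG1 and 46.2, 17.1, 25.4, 15.7 and 38.0 CPM with aPD1. The aPD1 group held both the highest and the lowest libraries, and the log2 fold change was 0.12 ± 0.28 (-0.46 to 0.70). The direction of Cd274 turned in 3 of 21 alternatives. Pdcd1, which encodes PD-1, ranged over 1.10 to 4.6 CPM and 0.643 to 6.85 CPM in the same order of groups, at 0.10 ± 0.51 (-0.93 to 1.14), and its direction turned in 6 of 21 alternatives. Pdcd1lg2, the gene of the second ligand PD-L2, was at -0.26 ± 0.63 (-1.55 to 1.04). In the list of 22 checkpoint and costimulation genes, 0 passed, 16 were bounded within 2-fold (89.4% over all genes), and the median was -0.033. Tox, a transcription factor of exhausted T cells, was lower at an unadjusted p under 0.05, with 1.59, 0.20, 0.847, 1.34 and 0.544 CPM under IgG1 and 0.599, 0.0495, 0.132, 0.145 and 0.695 CPM under aPD1, so the groups overlapped (log2 fold change -1.40 ± 0.55).

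Genes of cytotoxic and NK cells spread widely among the aPD1 libraries, and none passed. Gzmb, the granzyme of killer lymphocytes, measured 7.06, 5.40, 7.01, 3.37 and 8.24 CPM with IgG1 and 41.7, 2.92, 10.1, 2.81 and 27.1 CPM with aPD1. Libraries 1 and 5 of the aPD1 group were above 27 CPM while libraries 2 and 4 were below every IgG1 library, and the log2 fold change was 1.45 ± 0.61 (0.20 to 2.69). Without aPD1 library 1 it was 0.80 and without aPD1 library 5 it was 1.21. Prf1, which encodes the pore-forming perforin, was at 0.75 ± 0.56 (-0.40 to 1.90), and Gzmf at 0.95 ± 0.81. Prf1 was at 0.26 without aPD1 library 1 and at 0.42 without aPD1 library 5, and Gzmf at 0.63 and 0.15. Ifng, the gene of interferon gamma, measured 1.48, 0.450, 0.423, 0.0923 and 1.88 CPM under IgG1 and 3.21, 0.148, 0.920, 0.0484 and 1.87 CPM under aPD1, with a log2 fold change of 0.55 ± 0.61 (-0.69 to 1.79). The direction of Ifng turned in 2 of 21 alternatives, among them the fit without aPD1 library 1 and IgG1 library 3 (-0.35). Without IgG1 libraries 1 and 5 it was at 1.98.

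The whole list of 21 cytotoxic and NK genes had a median of 0.32 and 17 estimates above 0 (49.2% over all genes). It had 1 member at an unadjusted p under 0.05 (Gzmb) and 5 members bounded within 2-fold (89.4% over all genes). Its summed level was 115, 103, 109, 66.6 and 114 CPM in IgG1 libraries 1 to 5 and 243, 64.6, 108, 56.5 and 239 CPM in aPD1 libraries 1 to 5. Of the aPD1 libraries, 1 and 5 stood far above the highest IgG1 library, and 2 and 4 stood below the lowest. Leaving out the library with the most muscle RNA in each group, aPD1 library 1 and IgG1 library 3, brought the median to -0.11, and leaving out IgG1 libraries 1 and 5, the highest in epithelial genes, brought it to 0.58. Both subsets were chosen after seeing the data. Library 1 of the aPD1 group was also the highest of the 10 libraries in summed cytotoxic, T cell, class II and interferon gamma genes. IgG1 libraries 1 and 5 were the highest of their group in T cell, class II and interferon gamma genes. These medians therefore cannot link the genes to muscle or epithelial RNA. The medians of the interferon gamma targets were -0.10 and 0.38 in the same subsets, those of the T cell genes -0.36 and 0.38, and those of the class II genes -0.45 and 0.46. In bulk tissue, fewer cells of a type and less RNA per cell cannot be told apart.

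T cell genes and MHC class II genes were high in the same libraries, and none passed the test. The 24 T cell genes had a median of 0.0064, 13 estimates above 0 and 13 members bounded. They summed to 116, 53.3, 69.5, 80.6 and 86.1 CPM with IgG1 and 125, 49.7, 62.8, 50.7 and 112 CPM with aPD1. Cd4, the coreceptor of helper T cells, was at -0.42 ± 0.31 and Foxp3, the defining factor of regulatory T cells, at 0.20 ± 0.35 (-0.52 to 0.92). Of the 7 regulatory T cell genes tested, 7 were bounded, as were 89.4% of all genes. The 12 class II genes, which present antigen on dendritic cells, macrophages and B cells, had a median of -0.0038 and 6 bounded members. Their summed level ran 2777, 618, 1364, 1309 and 1859.8 CPM with IgG1 and 3534, 532, 920.1, 647 and 2189 CPM with aPD1. The highest and the lowest of the 10 libraries were both in the aPD1 group.

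**Figure D3:**
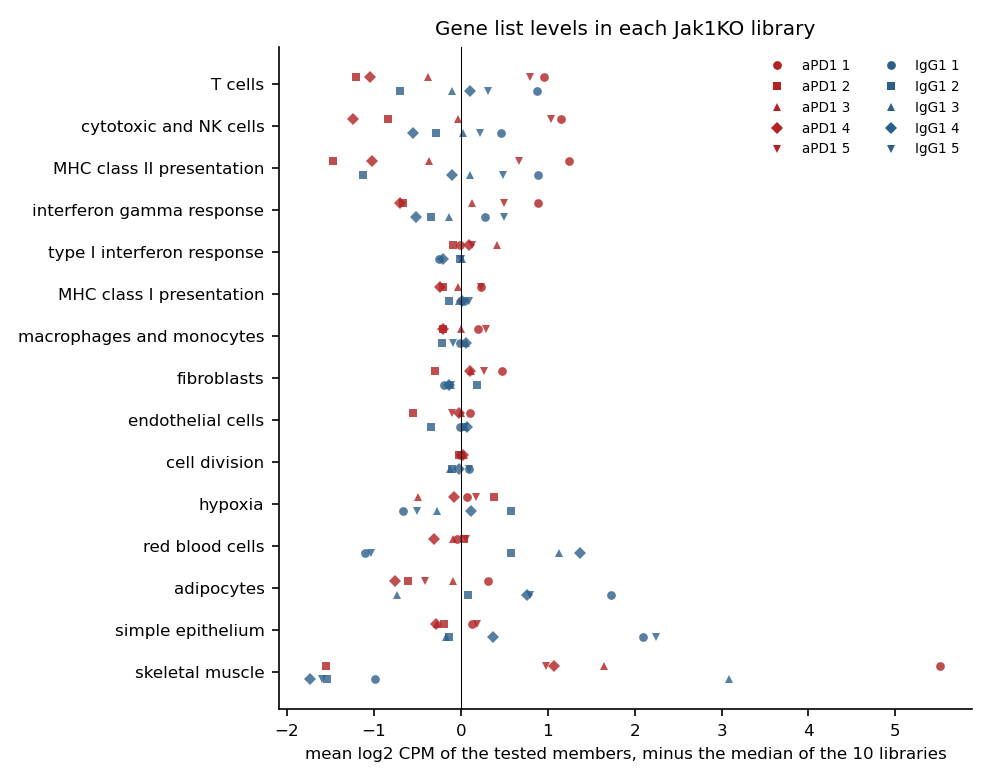
Mean log2 CPM of the tested members of 15 gene lists in each Jak1KO library, minus the median of the 10 libraries, with aPD1 in red, IgG1 in blue and the symbol giving the replicate. T cell, cytotoxic and class II genes spread widely within each group and are highest in aPD1 libraries 1 and 5 and IgG1 library 1, whereas class I, type I interferon and cell division genes hold within a narrow range.

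All 22 MHC class I genes were bounded within 2-fold, as were over 99% of all genes at 10 CPM or more. Their median log2 fold change was 0.010, and their median half-width, 0.35, equalled that of all genes. B2m, the invariant chain of class I, measured 1099, 1219, 1136, 1338 and 1230.5 CPM with IgG1 and 1393, 1183, 1031, 933 and 1708 CPM with aPD1, at a log2 fold change of 0.053 ± 0.19 (-0.33 to 0.44). H2-T23, a non-classical class I molecule that binds an NK receptor, was at 0.25 ± 0.34, and the chaperones Calr and Canx were at 0.11 ± 0.12 and 0.051 ± 0.069.

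No gene of the other leukocyte lists passed. Their counts of bounded members stand beside 89.4% of all genes. Macrophage and monocyte genes had 20 of 23 members bounded and a median of 0.040, and dendritic cell genes 8 of 11 tested and 0.020. Apoe, abundant in tumour macrophages, was at -0.53 ± 0.34 (-1.24 to 0.17), and Xcr1, a chemokine receptor of cross-presenting dendritic cells, at 0.84 ± 0.70 (-0.61 to 2.28). The direction of Xcr1 turned without aPD1 library 1, to -0.15, and it was at 2.21 without IgG1 libraries 1 and 5. Neutrophil genes had a median of 0.0084 over 8 tested members, and 2 were bounded. Only 5 of 12 B and plasma cell genes could be tested, with a median of -0.41 that turned to 0.22 without IgG1 library 1. All 6 mast cell genes tested had estimates below 0 (median -0.25), none at an unadjusted p under 0.05. The 6 share the same 10 libraries and are not separate observations. Of 21 chemokine genes, Ccl4, a chemokine of T cells and macrophages, was higher at an unadjusted p under 0.05 (0.58 ± 0.28) and Ccl17, an attractant of T cells, lower (-1.35 ± 0.65), and 10 were bounded.

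Type I interferon targets had estimates slightly above 0. The list had 30 members, of which 28 had an estimate above 0 and 29 were bounded within 2-fold, and its median was 0.18 (range over the alternatives 0.12 to 0.25). Over all genes, 49.2% had an estimate above 0 and 89.4% were bounded. No member of the list passed and none had an unadjusted p under 0.05. Oasl1, an inhibitor of interferon synthesis, was at 0.37 ± 0.21, Oas3, a sensor that makes the activator of RNase L, at 0.47 ± 0.30, and Rsad2, the antiviral protein viperin, at 0.42 ± 0.26. Rsad2 measured 20.3, 56.6, 40.4, 41.2 and 32.7 CPM with IgG1 and 42.7, 54.8, 48.8, 42.9 and 65.7 CPM with aPD1, so the low IgG1 library 1 and the high aPD1 library 5 lay at the ends of otherwise overlapping groups. The members of the list share the same 10 libraries, so the count of 28 does not stand for 28 separate observations. The list of cytokine receptors and JAK-STAT genes had 22 of 24 members bounded and a median of 0.019.

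No gene of cell division or stress responses passed. The counts of bounded members here stand beside 89.4% of all genes, 99.2% of those from 10 to 100 CPM and 99.5% of those above. Cell division genes had 20 of 20 members bounded and estimates between -0.082 and 0.068. Mcm2, a subunit of the replicative helicase, was at 0.058 ± 0.12 and Bub1, a mitotic checkpoint kinase, at 0.048 ± 0.095. For unfolded protein and integrated stress genes, 14 of 14 were bounded and 14 had estimates above 0 (49.2% over all genes), with a median of 0.090. None had an unadjusted p under 0.05, and the members share the same 10 libraries, so the 14 are not separate observations. Their mean log2 CPM was lowest in IgG1 library 1 (6.47) and highest in IgG1 library 2 (6.85). Hspa5, the main chaperone of the endoplasmic reticulum, was higher in every aPD1 library, at 1202, 1212, 1198, 1265 and 1227 CPM against 1082, 1157, 1038, 1126 and 1134 CPM, and the log2 fold change was 0.14 ± 0.12. Hypoxia genes had 14 of 15 bounded, with a median half-width of 0.56 against 0.35 for all genes. Ndrg1, a hypoxia-induced gene, ranged over 125 to 321 CPM with IgG1 and 165 to 279 CPM with aPD1, at 0.22 ± 0.24. The 7 tested mitochondrially encoded genes were all bounded, with a median of -0.13. Of 12 immediate early and heat shock genes, 9 were bounded, and the chaperone Hspa1b was lower at an unadjusted p under 0.05 (-1.35 ± 0.62), with IgG1 library 4 at 133 CPM and the other 9 libraries at or under 23.0 CPM. Without IgG1 library 4 its estimate turned to 0.093.

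Proteases, for which the series is named, were bounded to differing degrees. The shares ran from 63.2% to 80% of the tested members of a list, against 89.4% of all genes. Over all genes the share fell with level, to 53.4% under 1 CPM, so these shares are not read as a trait of proteases. Cathepsins and legumain had 11 of 14 members bounded and a median of 0.0069. Ctsc, which activates the granzymes, measured 363, 299, 310.2, 279 and 392 CPM with IgG1 and 563, 255, 361, 261 and 549 CPM with aPD1, again with aPD1 libraries 1 and 5 high (log2 fold change 0.28 ± 0.26). Of 19 matrix metalloproteinases and their inhibitors tested, 12 were bounded, with a median of 0.084, and Mmp19 was at 0.37 ± 0.24 and Mmp3, stromelysin 1, at -0.78 ± 0.64 (-2.09 to 0.53). ADAM and ADAMTS proteases had 16 of 20 bounded, and Adam8, a protease of myeloid cells, was at 0.30 ± 0.20. In the plasminogen system and serpins 10 of 14 were bounded. Plau, the urokinase plasminogen activator, was at 0.25 ± 0.20. Complement and coagulation proteases had 9 of 14 bounded and cell surface and processing peptidases 17 of 23. No member of these 6 lists passed the test, and 1, Cfd, had an unadjusted p under 0.05.

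In the stroma, 15 of 17 collagen genes and 14 of 16 TGF-beta pathway genes were bounded, with medians of 0.023 and -0.066. The counts of bounded members here stand beside 89.4% of all genes. Col1a1, the main fibrillar collagen, was at 0.32 ± 0.41 (-0.51 to 1.16). Col8a1 was higher in every aPD1 library, at 0.10 ± 0.11, and Inhba, which encodes an activin subunit, was at -0.23 ± 0.13. Fibroblast genes had 11 of 17 bounded and a median of 0.27. Pi16, a marker of adventitial fibroblasts, was higher at an unadjusted p under 0.05, with 2.02, 2.75, 3.10, 3.09 and 0.920 CPM under IgG1 and 7.92, 2.57, 3.73, 5.33 and 5.52 CPM under aPD1 (1.09 ± 0.50). Of 15 endothelial genes, 13 were bounded, and Cldn5, a tight junction protein of vessels, was at -0.64 ± 0.37.

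The lists of other tissues that a tumour piece can carry held large estimates, and none of their genes passed. The median over skeletal muscle genes was 2.44, with 20 of 20 tested members above 0 (49.2% over all genes). At an unadjusted p under 0.05, 6 were higher (0.587% over all genes), among them Myoz1 and Tcap of the sarcomere and the calcium buffer Pvalb. The members of a list share the same 10 libraries, so these counts are not separate observations. Tcap measured 0.164, 0, 2.73, 0 and 0.167 CPM with IgG1 and 23.6, 0, 0.745, 0.581 and 1.56 CPM with aPD1, and the whole list summed to 31.8, 34.9, 287, 33.1 and 27.4 CPM and 1548, 31.7, 120.3, 79.9 and 81.5 CPM. Thus aPD1 library 1 and, less so, IgG1 library 3 held most of the muscle RNA, and without aPD1 library 1 the median was -0.13. Without IgG1 library 3 it was 5.79. The groups overlapped for every member, 1 of 20 was bounded within 2-fold, and the part of muscle RNA in other results was not tested.

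Adipocyte genes had estimates mostly below 0, with a median of -0.60. Of 10 tested members, 4 were lower at an unadjusted p under 0.05 (0.535% over all genes), and they share the same libraries. The median was -0.15 over the members tested when only the Jak1KO groups were fitted, and -1.40 without aPD1 library 1 and IgG1 library 3. Cfd, which encodes the complement protease adipsin made by fat cells, measured 12.7, 0.849, 0, 1.89 and 4.31 CPM with IgG1 and 0.813, 0.0495, 0.482, 0 and 0.174 CPM with aPD1 (-3.59 ± 1.42), with IgG1 libraries 1 and 5 the highest and IgG1 library 3 at 0. Adiponectin, Adipoq, was at -2.73 ± 1.28 and Pck1, an enzyme of glyceroneogenesis, at -3.49 ± 1.78, and both groups held libraries at or near 0. Simple epithelium genes had a median of -1.03 and 4 of 9 tested members lower at that threshold (0.535% over all genes). The keratins Krt8 and Krt18 gave 2 and 3 counts in all 5 aPD1 libraries together against 85 and 76 in the IgG1 libraries, which are ratios of 44.5 (95% counting interval 11.9 to 373) and 26.5 (8.74 to 131). Most of those counts were in IgG1 libraries 1 and 5, and without these 2 the list median was 0.22. Counting intervals cover sampling of reads only and not the difference between tumours. Red blood cell genes had a median of -0.67, with summed levels of 14.1, 48.7, 73.7, 89.6 and 15.4 CPM with IgG1 and 31.6, 31.1, 29.3, 25.1 and 32.9 CPM with aPD1, so the aPD1 libraries lay inside the range of the IgG1 libraries. Schwann cell genes had 3 of 5 tested members bounded and a median of 0.18, and keratinocyte genes had a median of 0.032 over 4 tested members.

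The WT tumours, whose libraries are not used in the Jak1KO contrast, give a scale for these bounds, with effects estimated from other libraries. In them edgeR's quasi-likelihood test called 679 genes at an adjusted p under 0.05, 581 higher (3.75%) and 98 lower (0.632%) with aPD1. That list rests on the spread shared by all 6 groups, and when only the 10 WT libraries were fitted 63 genes were called. Genes picked for passing a test have estimates that are too large on average. The 679 genes had a median log2 fold change of 1.01 in WT tumours and of 0.056 in Jak1KO tumours, where 0 of them passed, 7 went the same way at an unadjusted p under 0.05 and 1 the opposite way. Within 2-fold, 556 of them were bounded (81.9%, against 89.4% of all genes). For 653 genes (96.2%) the WT estimate lay outside the Jak1KO interval, a share that was 79.8% when IgG1 libraries 1 and 5 were left out. These genes were picked for WT estimates far from 0, and the share leaves out the error of those estimates. It would be high for any Jak1KO estimates near 0, so it does not test a difference. The direct edgeR test of the difference called 0 of the 679 genes, and 432 had the same sign in both genotypes. The list itself depended on the WT libraries, with 229 genes called without WT aPD1 library 2, whose file header names an alignment file of another name, and 1110 without WT aPD1 library 4.

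**Figure D4:**
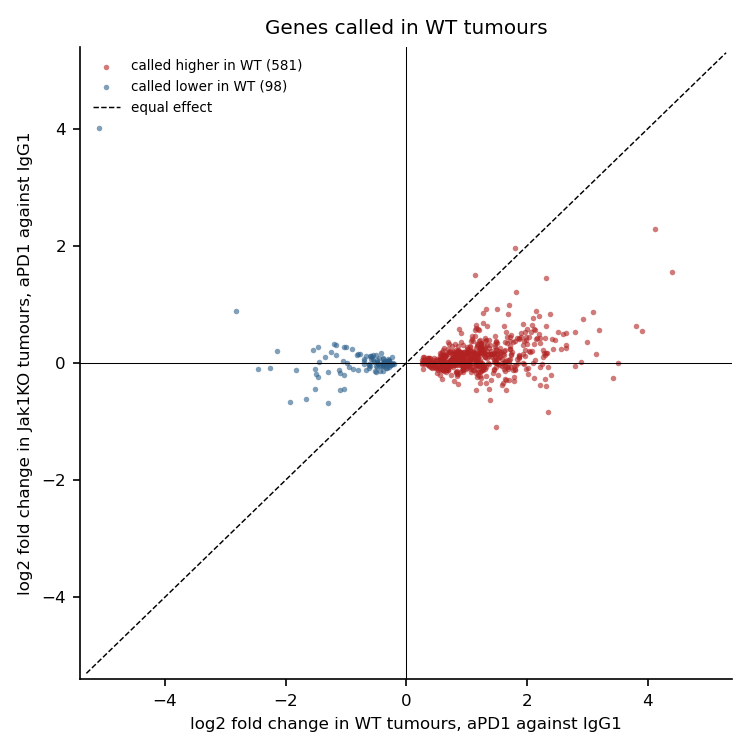
Log2 fold change of aPD1 against IgG1 in Jak1KO tumours (vertical) against that in WT tumours (horizontal) for the 679 genes called in WT tumours, with the dashed line at equal effects. Most points lie nearer to the horizontal line at 0 than to the dashed line, with medians of 1.01 in WT and 0.056 in Jak1KO tumours.

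The difference between the genotypes was tested directly as the Jak1KO effect minus the WT effect. It called 0 genes (0%), and the smallest adjusted p was 0.195. At an unadjusted p under 0.05 the effect was lower in Jak1KO than in WT tumours for 820 genes (5.29%) and higher for 466 (3.01%). DESeq2 called 47 genes for this difference, limma voom 0, and edgeR called 127 without WT aPD1 library 4 and 10 without WT IgG1 library 4. Of the 30 interferon gamma targets, 24 were called higher in WT tumours and 25 had a lower effect in Jak1KO tumours at an unadjusted p under 0.05. The corresponding numbers were 9 and 7 of 21 cytotoxic genes, 6 and 9 of 12 class II genes and 0 and 0 of 30 type I interferon targets. Over all genes the shares were 3.75% and 5.29%. Both numbers use the same WT libraries, so the second is not a separate observation from the first.

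Cd274 was at 1.96 in WT tumours (adjusted p = 0.000956) and at 0.12 in Jak1KO tumours, a difference of -1.84 ± 0.40 (95% interval -2.66 to -1.02; adjusted p = 0.195). Gbp7 differed by -1.26 ± 0.26, Pdcd1lg2 by -3.68 ± 0.92 and Ifng by -3.36 ± 1.02. Among the other genes with the smallest p for the difference were Gpr132, a lipid receptor of leukocytes, at -1.91 ± 0.40, and Tnfrsf14, a receptor of lymphocytes known as HVEM, at -0.95 ± 0.21, while Wscd1 had the opposite sign, at 1.72 ± 0.40. For Gzmb the difference was -0.86 ± 0.85, and its interval, -2.60 to 0.88, holds both 0 and large negative values. The interval for Nos2 was -1.97 to 0.55.

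**Figure D5:**
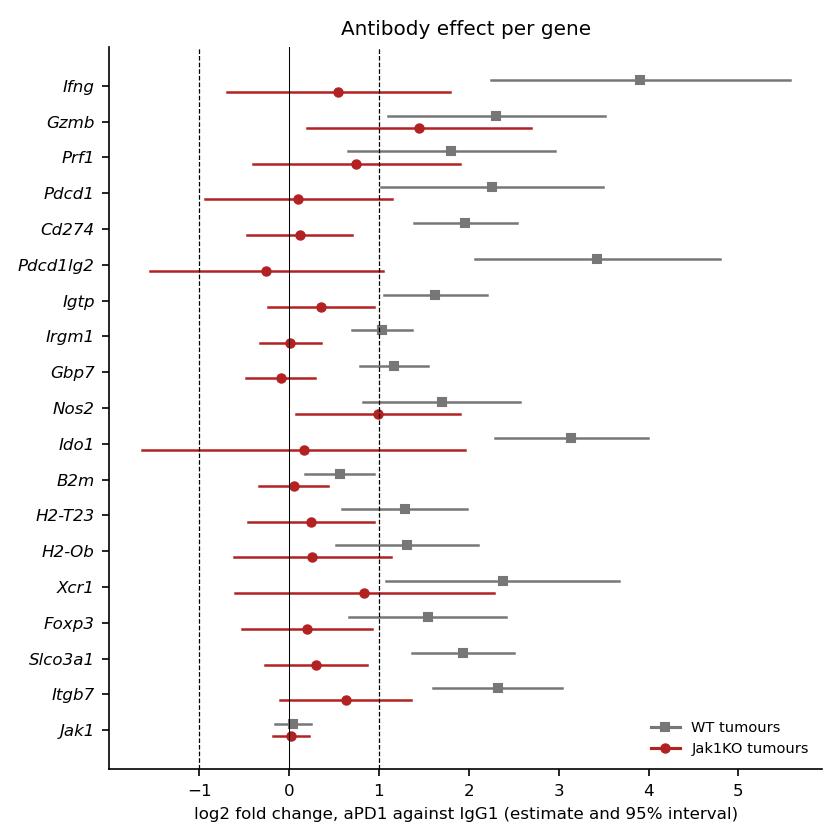
Estimated log2 fold change of aPD1 against IgG1 with its 95% interval for 19 genes in Jak1KO tumours (red circles) and in WT tumours (grey squares), with dashed lines at 2-fold. For several genes, among them Cd274, Gbp7, Irgm1, Slco3a1, Ifng and Pdcd1lg2, the WT estimate lies beyond the end of the Jak1KO interval. For Gzmb, Prf1 and Nos2 the intervals overlap widely.

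Tumours grown from cells with the B2m mutation were compared in the same way. The Jak1KO effect minus the B2mKO effect called 0 genes (0%) in edgeR, DESeq2 and limma voom, with a smallest edgeR adjusted p of 0.994 and 310 genes at an unadjusted p under 0.05. The 679 genes called in WT tumours had a median of 0.093 in B2mKO tumours, beside 0.056 in Jak1KO tumours. The median half-width of the interval for this difference was 0.50, wider than that of the Jak1KO effect alone.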

How the data were processed

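Per the file headers, the authors ran featureCounts 2.0.0 with gene models of Ensembl GRCm38 release 99 and set no option for strand, multiple mapping or read pairs, so each aligned end counted by itself. The deposited values are raw counts for 55471 genes. The submitters' processing notes name STAR 2.5.2a, edgeR 3.24.3, FastQC 0.11.2 and Cufflinks 2.2.1, and the build mm10. Overlapping genes cannot be told apart without strand, and near-identical copies (granzyme, Gbp, globin and Hspa1 genes) are uncertain. Of the identifiers, 55144 had a symbol in a reference table.

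The analysis from counts onward used edgeR 4.0.16, DESeq2 1.42.0 and limma 3.58.1 under R 4.3.3. Genes were kept by filterByExpr (minimum count 10, minimum total 15), leaving 15505, and scaled by TMM. A single model of 6 group means was fitted to the 30 libraries and tested by edgeR's quasi-likelihood F-test with Benjamini-Hochberg adjustment (threshold 0.05). Standard errors come from the fitted information matrix, intervals are pointwise at 95% with t quantiles, and the equivalence test used a margin of 2-fold. The steps were tested on simulated data. No 2 libraries of a Jak1KO group were copies of each other (6.49 to 23.1 chi-square units per degree of freedom).

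The comparison and the 36 gene lists (595 genes, 526 tested) were chosen with earlier results of these data known. Named genes are 7 fixed genes; up to 8 per direction with non-overlapping groups, at least 5 CPM and an unadjusted p under 0.05; the 3 members with the smallest p per list; the 8 with the smallest p for the difference from WT and for WT; and the 3 narrowest intervals. Predicted genes were left out, and other list members and Arhgap8 were named after their values were seen. Some genes that the rule names are not reported here. Alternatives were other tools, size factors, filters, spreads, library subsets and a replicate block.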

Additional observations from a re-analysis of the deposited data

Results flagged for a closer look

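A library standing apart from the other 4 of its group was looked for with Dixon's ratio (the gap to the nearest library over the range of the group), which marks a group of 5 above 0.71. Chance marks about 1 in 20 groups, and 14 of the 346 groups examined were marked. Among list levels these were skeletal muscle in IgG1 library 3 (ratio 0.845, mean log2 CPM 3.22 against -0.85 for the next), endothelial cells (0.813) and fibroblasts (0.776) in IgG1 library 2, lowest and highest respectively, and skin keratinocytes in aPD1 library 3 (0.769, highest).

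Among single genes, aPD1 library 1 was the highest for Myoz1 (0.728) and Clec9a (0.731) and the lowest for Plau (0.794). In the aPD1 group Krt19 had 1 library with counts and 4 at 0 (a ratio of 1 for library 2), Adamts6 was lowest in library 5 (0.749) and Tent5c lowest in library 4 (0.769). In the IgG1 group Pvalb was highest in library 3 (0.735), Serpini1 highest in library 1 (0.725), Prf1 lowest in library 4 (0.723) and Tnfrsf14 lowest in library 2 (0.765).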

How the results depend on the processing

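The count of 0 genes for aPD1 in Jak1KO tumours held under all 20 alternatives run, including leaving out each library (0 to 0 genes), and the number bounded within 2-fold was 13476 to 13627 with 1 library left out, 13307 without aPD1 library 1 and IgG1 library 3, and 13007 without IgG1 libraries 1 and 5 (both chosen after seeing the data). The replicate block called 0 genes for this comparison and for both differences, bounded 13952 genes and called 652 in WT tumours; equal numbers correlated at 0.148, 0.355, 0.152, 0.094 and 0.159, and 2 of 5 aPD1 libraries correlated best with their own number, so the numbers were not taken to pair samples. For the difference from WT, DESeq2 called 47 genes, and leaving out 1 library gave 0 to 127; the difference from B2mKO stayed at 0 to 0. The WT list had 63 genes when only WT libraries were fitted and 229 to 1110 with 1 library left out, outside 1.5 times for WT aPD1 libraries 1, 2, 4 and 5 (366, 229, 1110, 388) and WT IgG1 libraries 1 and 5 (348, 379). The causes were not tested. Of the 134 genes followed, 32 changed sign in at least 1 fit, at most 13 in any single fit, and none passed in any. Intervals were widest for genes under 1 CPM, and counting noise and spread between libraries were not separated there. Libraries with distant order numbers (IgG1 1 and 2) left out gave 13128 bounded genes.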
